A study of Homo sapiens with 11 samples.

Results

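The genes described here are 40 genes of the hypoxia-inducible factor (HIF) pathway and of glycolysis, followed in 769-P, a cell line from a human clear-cell carcinoma of the kidney, after siRNA knockdown of the aldehyde reductase gene AKR1A1. They were taken by symbol from the 33080 rows of the deposited gene tables and fall into 7 regulators of HIF, 21 genes of glycolysis and its control, and 12 other hypoxia targets. Of all rows, 17626 had a read in some library. RNA sequencing covered 11 libraries, 3 from cells given a first siRNA against AKR1A1 (si1), 4 from cells given a second one (si2) and 4 from cells given a control siRNA (siSCR). All cells stood for 48 h under a lipid transfection with siRNA labelled at 20 µM, in standard DMEM culture, and no library was labelled as hypoxic. The labels also give the si1 and si2 libraries an AKR1A1-/- genotype and the siSCR libraries a wild-type one, whereas the protocol describes a transient siRNA transfection. Whether libraries of a group came from separate cultures is not labelled, and p-values therefore reflect only how these libraries varied.

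HIF is a pair of proteins, an oxygen-regulated alpha subunit (from HIF1A or EPAS1) and the stable partner ARNT, that binds an ACGTG or GCGTG core in DNA. With oxygen present, the prolyl hydroxylases EGLN1, EGLN2 and EGLN3 mark the alpha subunit and the VHL protein directs its destruction. Clear-cell renal carcinomas commonly lose VHL function, so that HIF targets, among them many glycolytic genes, are typically active in these tumours even with oxygen. Regulation of HIF is largely at the protein level, which these RNA data do not measure.

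Depth was 2108546 to 5939514 reads on genes per library. AKR1A1 itself had 81.7, 23.6 and 45.1 normalized counts in si1 and 56.6, 32.1, 48.3 and 46.1 in si2, against 390, 256, 200 and 242 in siSCR. Every knockdown library lay below every control library. On the log2 scale the difference from siSCR was -2.54 with si1 (SE 0.42, limma adjusted p = 0.0357) and -2.53 with si2 (SE 0.24, limma adjusted p = 0.00218). With 1 library left out, the si2 call held each time, with an adjusted p of at most 0.014, and the si1 call held only without siSCR 1 (adjusted p 0.0210, and up to 0.126 without another library). The exact permutation p was 0.0571 for si1, the smallest that 35 splits allow, and 0.0286 for si2, the smallest that 70 splits allow. One control library, siSCR 1, stood apart from the other controls. Of its reads 12.1% were mitochondrial, against 3.46% to 4.46% in the other siSCR libraries. The share was 6.57% to 11.1% in si1, with 11.1% in si1 1, and 4.59% to 5.12% in si2. siSCR 1 lay outside the range of the other 3 siSCR libraries for 71.8% of 10517 tested genes, 3783 above and 3766 below. It also did so for 18 of 18 tested glycolysis members and for 9 of 10 tested other hypoxia targets, 7 of these above. Without ties, each gene has 1 highest and 1 lowest library among the 4 controls. Any control therefore lies outside the range of the others for many genes by chance alone. This share was not worked out for the other controls. Several results are given with and without siSCR 1 below. Of 9 renal epithelial markers, the summed level was 12587 to 16681 in si1, 15018 to 16484 in si2 and 15429 to 16816 in siSCR, and VIM was the largest part of it. Among them the keratin gene KRT18 had 325 to 470 normalized counts in si1 and 545 to 712 in si2, against 673 to 831 in siSCR, a log2 fold change for si1 of -0.97 (SE 0.20, limma adjusted p = 0.0564), and its part in the results with si1 was not tested. Of 7 markers of other cell types, the endothelial genes PECAM1 and CDH5 and the fibroblast gene LUM were at 0 in every library.

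Levels between genes were compared as normalized count per kb of exon. The length was that of all annotated exons of a gene merged over its transcripts. It can exceed the length of the transcript present, so the order depends on this divisor. The glycolytic members spanned the widest range. In siSCR, GAPDH, which oxidizes glyceraldehyde 3-phosphate, stood at 7681 per kb, PKM, the pyruvate kinase, at 1426, and LDHB, a lactate dehydrogenase subunit, at 1090. These 3 were also the highest in both knockdown groups. ALDOA at 782, ENO1 at 777 and TPI1 at 690 per kb followed within their spread of each other, with SDs of 52.9, 221 and 84.8 over n = 4. PFKP at 261, LDHA at 207, PGK1 at 127 and GPI at 103 per kb came next. Among the other hypoxia targets P4HA1, a subunit of collagen prolyl hydroxylase, stood highest at 56.3 per kb. BNIP3L, a mitochondrial receptor of autophagy, was at 40.7 per kb, and NDRG1, a stress-responsive cytoplasmic protein, at 30.4. CA12, a membrane carbonic anhydrase, was at 28.7 per kb, and these levels overlapped between libraries. By mean normalized count in siSCR, not divided by length, NDRG1 at 298, CA12 at 210 and BNIP3L at 175 stood above P4HA1 at 174. Of the regulators, EGLN2 had 25.3 and EGLN1 16.7 per kb, above ARNT at 10.7, and the alpha subunits were low, with HIF1A at 3.77 and EPAS1 at 1.49 per kb. Some members were hardly counted at all. VHL had 0 to 5 reads and ANKRD37 0 to 5 reads in any library, and CA9, a carbonic anhydrase often used as a marker of clear-cell tumours, had 0 of 36266558 reads in all libraries together, a count that allows a share of up to 8.27e-06%.

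**Figure D1:**
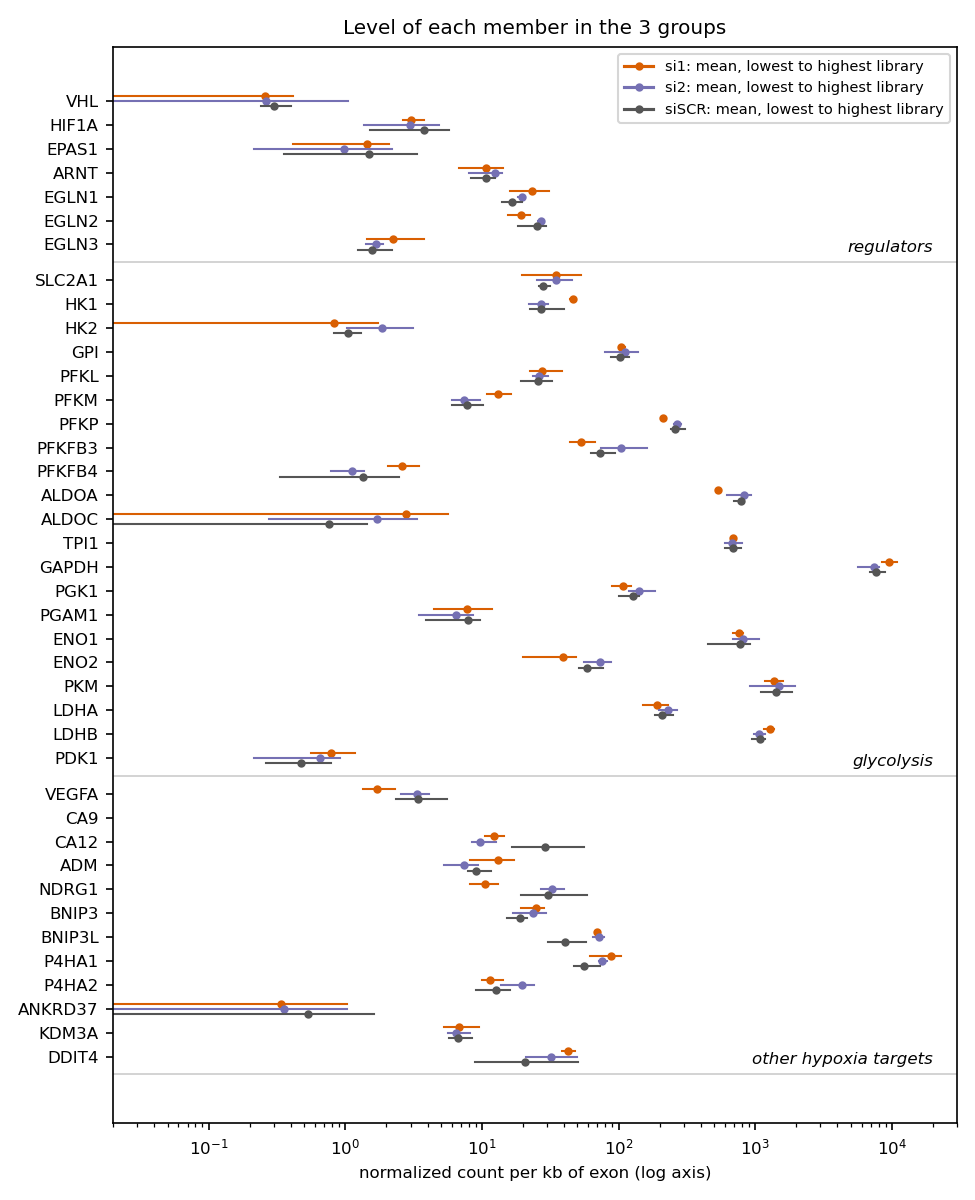
Mean normalized count per kb of exon (log axis) of each member in si1, si2 and siSCR, with a line from the lowest to the highest library; a line that reaches the left edge includes a library at 0 or below the axis, and CA9, at 0 in every library, has no point. GAPDH, PKM and LDHB are highest in each of the 3 groups, and VHL, PDK1, ALDOC and ANKRD37 lie near 1 per kb or below in siSCR.

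Some members share annotated exon bases with other loci, counted here without regard to strand. Whether reads were shared was not measured. The main partner of DDIT4, of CA9 and of ANKRD37 lies on the opposite strand. For ALDOA, 53.5% of exon bases also belong to another annotated gene, for DDIT4 41.2%, for CA9 38.5%, for ANKRD37 35.2%, for LDHB 33.4% and for EGLN2 30.6%. Annotated pseudogenes of any class named after the gene numbered 62 for GAPDH, 39 for BNIP3, 13 for PGAM1 and 6 for LDHA. How the counting divided reads among such loci is not given in the sources used here, so these levels are uncertain. PGAM1 stood at 7.87 per kb, although it encodes the main phosphoglycerate mutase between the abundant PGK1 and ENO1.

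Among paralogues, 1 form took most of the count. PFKP, the platelet-type phosphofructokinase, made up 83.9% ± 2.1 of the PFKL, PFKM and PFKP count per kb in si1 (SD, n = 3), 88.9% ± 1.6 in si2 and 88.7% ± 1.6 in siSCR (SD, n = 4 each). The muscle-type PFKM made up 4.04% to 6.67% of it in si1, 1.90% to 3.28% in si2 and 2.27% to 2.93% in siSCR. The si1 libraries thus all lay above both other groups. LDHA encodes the lactate dehydrogenase subunit that is a classical HIF target. It made up 11.5% to 14.5% of the LDHA and LDHB count per kb in si1 and 16.1% to 20.4% in si2. In siSCR it made up 14.1% to 21.0%, where 21.0% was siSCR 1 and the others reached 14.7%. This share of RNA depends on the merged exon lengths, 6.21 kb for LDHA and 2.98 kb for LDHB, and is not a share of the enzyme. HK1 made up 96.5% to 100% of the HK1 and HK2 count per kb in si1, 90.7% to 95.8% in si2 and 94.9% to 98.0% in siSCR. A further hexokinase outside the members, HKDC1, had a higher count per kb than both together in every library except siSCR 1: it took 70.0% to 79.7% of the 3 in si1, 76.7% to 78.8% in si2 and 46.3% to 81.7% in siSCR, where 46.3% was siSCR 1.

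The proximal promoters were searched for the HIF core in the letters ACGTG and GCGTG on both strands, over 250 bases upstream of each RefSeq start. A palindromic CACGTG holds ACGTG on both strands, and a promoter was counted once. Sequences of 4 members are shown (RefSeq, GRCh38.p14), since CA12, DDIT4 and PFKFB4 carry the differences described below and PGK1 has the most ACGTG cores of the 4. Each is written 5′ to 3′ on the gene's strand and ends at the base before the start, and capitals mark the cores on either strand.
CA12, chr15:63381847-63382096, minus strand: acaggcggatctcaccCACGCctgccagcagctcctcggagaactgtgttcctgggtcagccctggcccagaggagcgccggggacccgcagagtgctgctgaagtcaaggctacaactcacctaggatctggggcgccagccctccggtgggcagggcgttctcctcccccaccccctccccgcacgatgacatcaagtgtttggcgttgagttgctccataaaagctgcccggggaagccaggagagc
DDIT4, chr10:72273674-72273923, plus strand: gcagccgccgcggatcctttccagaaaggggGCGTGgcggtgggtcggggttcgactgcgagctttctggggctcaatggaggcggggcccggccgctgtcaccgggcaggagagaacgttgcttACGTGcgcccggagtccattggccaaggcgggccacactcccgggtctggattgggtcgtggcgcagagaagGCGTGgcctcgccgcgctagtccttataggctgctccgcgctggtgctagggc
PFKFB4, chr3:48556804-48557053, minus strand: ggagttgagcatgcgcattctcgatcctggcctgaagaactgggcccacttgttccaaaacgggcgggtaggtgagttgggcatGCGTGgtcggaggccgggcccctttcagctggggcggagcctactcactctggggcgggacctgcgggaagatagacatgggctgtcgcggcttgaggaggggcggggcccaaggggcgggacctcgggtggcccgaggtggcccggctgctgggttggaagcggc
PGK1, chrX:78103998-78104247, plus strand: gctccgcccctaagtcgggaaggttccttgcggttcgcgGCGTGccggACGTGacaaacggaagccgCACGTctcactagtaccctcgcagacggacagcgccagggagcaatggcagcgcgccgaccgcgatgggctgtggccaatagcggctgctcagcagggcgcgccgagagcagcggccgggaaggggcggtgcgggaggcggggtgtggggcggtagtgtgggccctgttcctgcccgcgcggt

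CA12 and PFKFB4 had 1 GCGTG core and 0 ACGTG cores, DDIT4 had 2 and 1, and PGK1 had 1 and 2. The table held promoters of 36 of the 40 members, and VHL, NDRG1, BNIP3L and VEGFA had no entry. Over all promoters of the glycolysis members, several for some genes, 16 of 43 (37.2%) held ACGTG, of the other hypoxia targets 5 of 10 (50%), and of the regulators 2 of 8 (25%). Among promoters of genes with a normalized count of at least 10 in 3 or more libraries, 2755 of 12206 (22.6%) held it, and among all promoters 6501 of 35116 (18.5%). Counted by gene, ACGTG was in some promoter of 13 of 21 glycolysis members (61.9%), 5 of 9 other hypoxia targets (55.6%) and 2 of 6 regulators (33.3%), against 2455 of 8287 such expressed genes (29.6%). These sets are not alike. The members were not limited to expressed genes, and CA9, ANKRD37 and ALDOC, below that level, are among those with ACGTG. A gene with more promoters also has more chances of a match, with 43 promoters for 21 glycolysis members against 12206 for 8287 expressed genes. By promoter, GCGTG was in 12 (27.9%) of the glycolysis promoters, 6 (60%) of those of the other targets and 2 (25%) of those of the regulators. Among promoters of such expressed genes the share was 44.5%. HK1 and PFKM, with many promoters each, weigh heavily in the glycolysis share. By gene, either core was in some promoter of 17 of 21 glycolysis members (81.0%), 8 of 9 other targets (88.9%) and 4 of 6 regulators (66.7%). The share of such expressed genes was 5522 of 8287 (66.6%). A match is a description of letters and not of binding.

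No member passed the test with either siRNA against the control. A gene was tested where its normalized count reached 10 in enough libraries, and was called where its p, adjusted by Benjamini-Hochberg over all tested genes, fell under 0.05. For si1, 0 of 34 tested members were called by limma, against 1.72% of all 10517 tested genes. At an unadjusted p under 0.05 there were 9 of 34 members, against 23.9% of all tested genes. For si2, 0 of 32 tested members were called, against 3.12% of 10249 genes, and 4 of 32 had an unadjusted p under 0.05, against 19.6%. On reads recovered from the deposited values, voom, run after the data were seen, called 1 member with si1 (ALDOA, lower) and 2 with si2 (CA12, lower, and BNIP3L, higher). Below the filter with si1 were VHL, HK2, ALDOC, PDK1, CA9 and ANKRD37, and with si2 also EPAS1 and PFKFB4. Both comparisons share the 4 siSCR libraries.

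Glycolysis as a group was centred near 0 with both siRNAs. Its median log2 fold change was 0.02 for si1 over 18 tested members, 10 above and 8 below 0, and 0.05 for si2 over 17, 12 above and 5 below. Over all tested genes the medians were -0.03 and -0.01. The 95% confidence interval of the log2 fold change lay wholly within ±1 for 14 of 18 members with si1 and for 15 of 17 with si2. For LDHA the interval was -0.62 to 0.37 with si1 and -0.21 to 0.53 with si2, for PGK1 -0.71 to 0.24 and -0.27 to 0.58, and for SLC2A1, the glucose transporter, -0.55 to 0.94 and -0.15 to 0.72. The other hypoxia targets had median log2 fold changes of 0.20 with si1 and 0.28 with si2, over 10 tested members each, and the intervals lay within ±1 for 3 and for 5 of them.

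**Figure D2:**
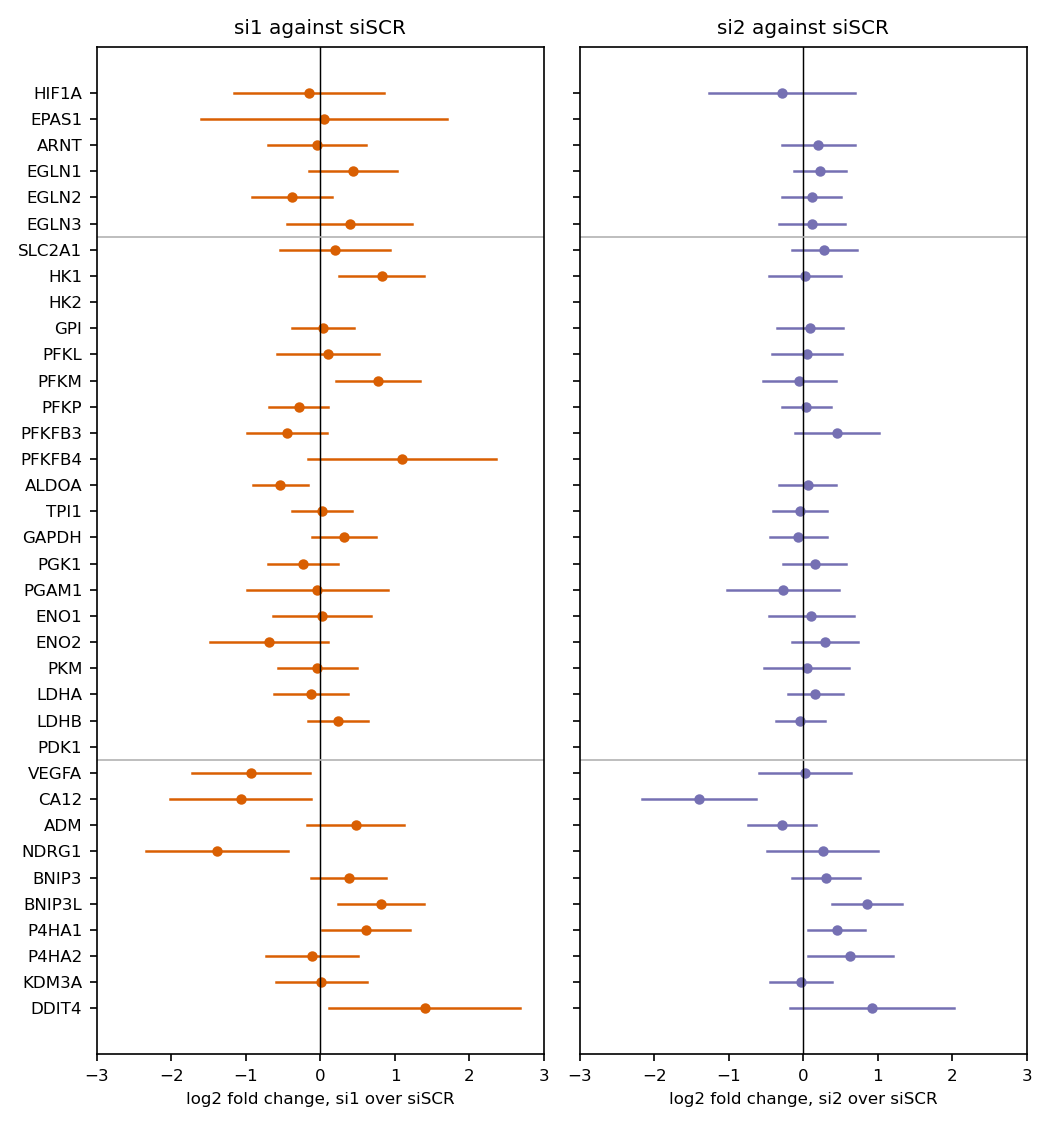
Log2 fold change (points) and 95% confidence interval (lines) of each tested member, with si1 against siSCR on the left and si2 against siSCR on the right; grey lines part regulators, glycolysis and other hypoxia targets, and a row without a point was below the filter. In si2 the glycolysis points run from -0.27 to 0.46, while the other hypoxia targets run from -1.40 to 0.93.

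Of the regulators, EGLN1, the main oxygen-sensing hydroxylase of HIF, had the largest positive fold change with both siRNAs. It had 168, 223 and 117 normalized counts in si1 and 150, 135, 149 and 133 in si2, against 118, 123, 144 and 102 in siSCR. The knockdown groups overlapped the control group. Its difference from siSCR, in log2, came to 0.44 with si1 (SE 0.25, limma adjusted p = 0.319) and 0.23 with si2 (SE 0.16, limma adjusted p = 0.459). Leaving out si1 2 took the si1 value to 0.22 and leaving out si1 3 took it to 0.68, while the si2 value was 0.15 without siSCR 4. EGLN2 had the largest negative value with si1, -0.38 (SE 0.23, limma adjusted p = 0.344), with 133, 101 and 147 in si1 against 121, 174, 194 and 178 in siSCR, and without si1 2 it was -0.23. HIF1A had the largest negative value with si2, -0.28 (SE 0.44, limma adjusted p = 0.780), with 7.08, 24.9, 12.6 and 16.6 in si2 against 29.4, 13.9, 7.85 and 26.5 in siSCR. Over 6 to 35 reads of HIF1A per library, its 95% interval with si2 ran from -1.27 to 0.70, and the value ran from -0.63 to 0.012 with 1 library left out. EPAS1, the other alpha subunit, ran from 3.01 to 15.3 in si1 and from 1.55 to 15.9 in si2, against 2.62 to 24.3 in siSCR.

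Upstream in glycolysis, the si1 libraries held more HK1, which phosphorylates glucose on entry. HK1 had 302, 303 and 278 normalized counts in si1 and 140, 170, 192 and 179 in si2, against 253, 142, 150 and 141 in siSCR. All si1 libraries lay above all other libraries, and the highest control was siSCR 1. It came out at 0.82 in log2 units with si1 (SE 0.25, limma adjusted p = 0.111) and at 0.03 with si2 (SE 0.22, limma adjusted p = 0.965). Without siSCR 1 it was 1.02 (limma adjusted p = 0.0149) and 0.23 (limma adjusted p = 0.349). PFKM had 79.0, 119 and 91.7 in si1 and 44.2, 44.1, 70.4 and 58.6 in si2, against 74.7, 57.7, 44.5 and 48.9 in siSCR, a log2 fold change of 0.77 for si1 (SE 0.24, limma adjusted p = 0.121). Leaving out siSCR 1 took PFKM with si1 to 0.91 (limma adjusted p = 0.0403).

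The bifunctional enzymes PFKFB3 and PFKFB4 set the level of fructose 2,6-bisphosphate, an activator of phosphofructokinase. PFKFB4 had the largest positive glycolytic value with si1, with 14.1, 12.5 and 21.0 in si1 and 7.96, 4.82, 8.40 and 6.22 in si2, against 15.1, 10.7, 5.23 and 2.04 in siSCR. The si1 and siSCR libraries overlapped, and si1 gave a log2 fold change of 1.09 (SE 0.55, limma adjusted p = 0.259), which was 0.64 without siSCR 4, the library with the lowest level. PFKFB3 had the largest positive glycolytic value with si2, 0.46 (SE 0.25, limma adjusted p = 0.362). Its levels were 299, 414 and 269 in si1 and 508, 453, 991 and 576 in si2, against 381, 408, 576 and 412 in siSCR, with si2 3 far above the rest, and without that library the value was 0.22.

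Lower in the pathway, ENO2, a second enolase, had the largest negative glycolytic value with si1. It had 207, 86.0 and 207 normalized counts in si1 and 336, 240, 378 and 293 in si2, against 328, 238, 226 and 221 in siSCR. Each si1 library lay below each siSCR library, with si1 2 the lowest, which gave a log2 fold change of -0.69 (SE 0.34, limma adjusted p = 0.258). Without si1 2 it was -0.27 (limma adjusted p = 0.510), nearer 0 than the value of ALDOA. ALDOA, the main aldolase, had 2100, 2019 and 2209 in si1 and 3631, 3577, 2433 and 3288 in si2, against 3207, 3173, 2757 and 3115 in siSCR. All si1 libraries lay below all others, at a log2 fold change of -0.54 (SE 0.16, limma adjusted p = 0.112). PGAM1 had the largest negative glycolytic value with si2, -0.27 (SE 0.34, limma adjusted p = 0.724), over 10 to 39 reads per library, and ran from -0.55 to -0.01 with 1 library left out.

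Among the other hypoxia targets, CA12 lay lower and BNIP3L higher with both siRNAs, and neither passed the test. CA12 (chr15:63321378-63382161) had 83.4, 107 and 76.6 normalized counts in si1 and 66.3, 63.4, 92.4 and 61.7 in si2, against 408, 166, 122 and 145 in siSCR. No knockdown library overlapped the controls, of which siSCR 1 was the highest. In log2 units the change came to -1.07 with si1 (SE 0.41, limma adjusted p = 0.170) and -1.40 with si2 (SE 0.34, limma adjusted p = 0.0578). Without siSCR 1 it was -0.69 (limma adjusted p = 0.0752) for si1 and -1.02 (limma adjusted p = 0.0101) for si2.

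BNIP3L (chr8:26382898-26505636) had 292, 309 and 295 in si1 and 280, 298, 327 and 334 in si2, against 249, 177, 132 and 142 in siSCR. Again no knockdown library overlapped the controls. As a log2 fold change this was 0.81 with si1 (SE 0.25, limma adjusted p = 0.113) and 0.86 with si2 (SE 0.21, limma adjusted p = 0.0568), and without siSCR 1 it was 1.00 (limma adjusted p = 0.0210) and 1.05 (limma adjusted p = 0.00466). Its relative BNIP3 had a log2 fold change of 0.38 with si1 and 0.30 with si2, with overlapping groups.

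DDIT4 (chr10:72273920-72276036), which restrains mTORC1 signalling under stress, had the largest positive value of this group with both siRNAs. It had 84.3, 79.1 and 99.2 normalized counts in si1 and 43.3, 57.8, 103 and 58.6 in si2, against 103, 21.4, 18.3 and 26.5 in siSCR. The groups overlapped through siSCR 1 alone, and the other 3 controls lay below every knockdown library. The fitted log2 difference from siSCR was 1.40 with si1 (SE 0.55, limma adjusted p = 0.179) and 0.93 with si2 (SE 0.49, limma adjusted p = 0.340). Leaving out siSCR 1 moved it to 1.95 (limma adjusted p = 0.00787) and 1.47 (limma adjusted p = 0.0104).

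NDRG1 (chr8:133237171-133302022) separated the siRNAs. It had 128, 80.5 and 99.2 normalized counts in si1 and 264, 286, 391 and 346 in si2, against 578, 198, 190 and 228 in siSCR. Every si1 library lay below every other library, while the si2 libraries lay between siSCR 1 and the remaining controls. In log2 units, si1 gave -1.39 (SE 0.41, limma adjusted p = 0.109), the largest negative value of the group, and si2 gave 0.26 (SE 0.34, limma adjusted p = 0.731). Without siSCR 1 it was -1.01 (limma adjusted p = 0.0320) and 0.63 (limma adjusted p = 0.0439), and without siSCR 3 the si2 value was 0.10.

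**Figure D3:**
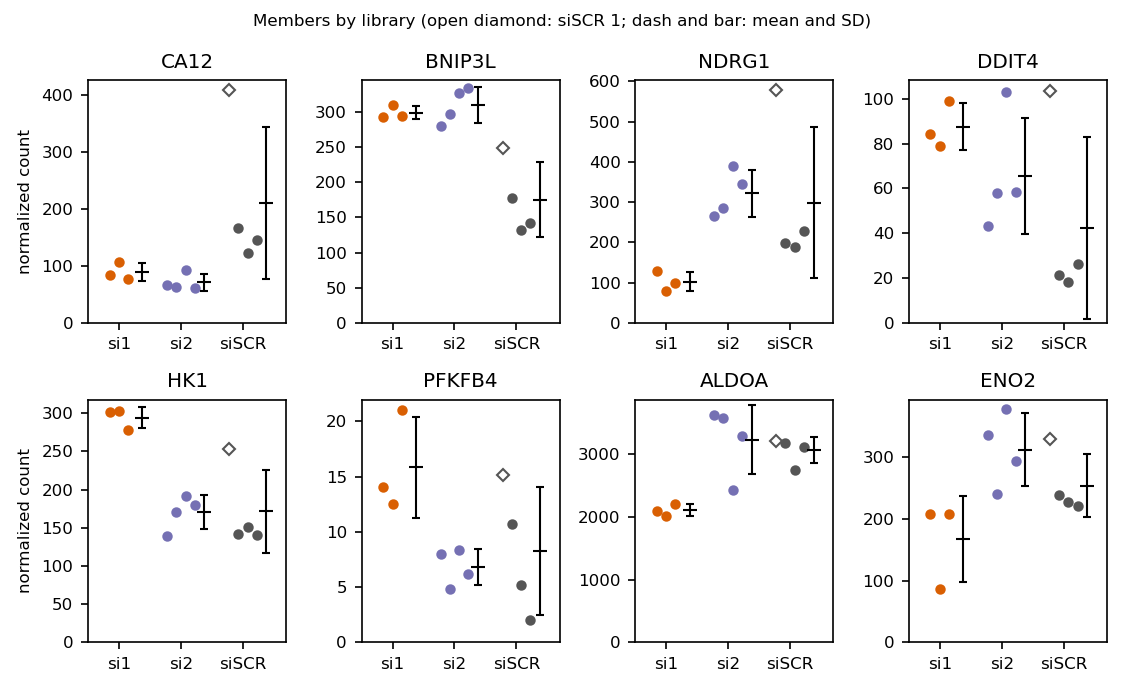
Normalized count of 8 members in each library of si1, si2 and siSCR, with the mean and SD of each group at its right; open diamonds mark siSCR 1. CA12 is lower and BNIP3L higher in all si1 and si2 libraries than in siSCR, and siSCR 1 is the highest control for CA12, BNIP3L, NDRG1, DDIT4, HK1, PFKFB4, ALDOA and ENO2.

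VEGFA, the angiogenic growth factor, had 33.4, 20.8 and 19.5 normalized counts in si1 and 43.3, 59.4, 52.5 and 36.8 in si2, against 80.6, 34.2, 47.1 and 35.6 in siSCR. All si1 libraries lay below the others, at a log2 fold change of -0.93 for si1 (SE 0.34, limma adjusted p = 0.159). Without siSCR 1 the VEGFA value was -0.67 (limma adjusted p = 0.129). P4HA1 had 323, 190 and 298 in si1 and 221, 238, 255 and 227 in si2, against 225, 162, 162 and 147 in siSCR, a log2 fold change of 0.61 for si1 and 0.45 for si2. The groups overlapped through siSCR 1 alone. Without that library P4HA1 came to 0.74 (limma adjusted p = 0.0856) with si1 and 0.58 (limma adjusted p = 0.0229) with si2. With all libraries, the related P4HA2 had -0.12 with si1 and 0.63 with si2. ADM, a vasodilator peptide, had 0.47 and -0.28, and KDM3A, a histone demethylase, 0.01 and -0.03.

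In counts of non-overlapping groups, 9 of 34 tested members stood apart with si1, against 21.7% of all tested genes. BNIP3L, PFKM and HK1 were above, against 10.8%, and PFKP, CA12, NDRG1, ENO2, VEGFA and ALDOA below, against 10.9%. With si2 it was 2 of 32, against 12.6%, with BNIP3L above, against 7.09%, and CA12 below, against 5.5%. Without siSCR 1, limma called 5 members with si1, NDRG1 lower and BNIP3L, PFKM, HK1 and DDIT4 higher, against 13.5% of 10340 tested genes (6.52% lower and 7.01% higher). With si2 it called 5, CA12 lower and NDRG1, BNIP3L, P4HA1 and DDIT4 higher, against 14.4% of 10381 (6.68% lower and 7.74% higher). The glycolysis medians without siSCR 1 were -0.03 for si1 and 0.09 for si2, and those of the other hypoxia targets 0.14 and 0.43. In the authors' deposited table, 5 members had an adjusted p under 0.05 with si1 (ALDOA, NDRG1 and CA12 lower, HK1 and BNIP3L higher), against 9.81% of the genes tested here, 5.33% lower and 4.48% higher. With si2 the authors' deposited table had 2 (CA12 lower, BNIP3L higher), against 5.8%, 2.35% lower and 3.44% higher.

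**Figure D4:**
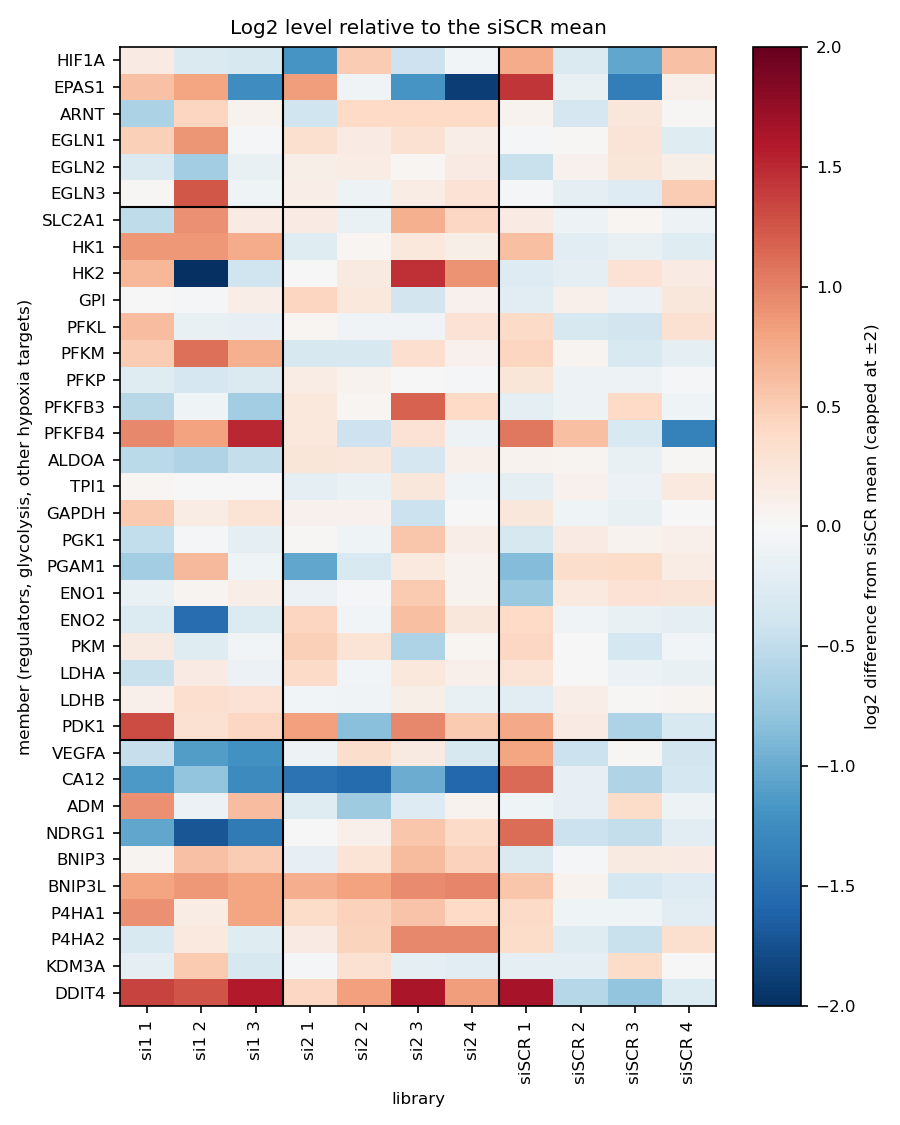
Log2(normalized count + 1) of each member tested in some comparison, as the difference from the mean of siSCR, in every library of si1, si2 and siSCR; black lines part the groups of libraries and the regulators, glycolysis and other hypoxia targets, and colours are capped at ±2. The CA12 row is lower and the BNIP3L row higher in all 7 knockdown libraries, and siSCR 1 differs in colour from the other 3 controls in many rows.

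Set against each other without the controls, the siRNAs differed in 3 of 36 tested members, against 6.74% of all 10448 tested genes, 1 higher in si2 (against 3.71%) and 2 lower (against 3.02%). NDRG1 was higher in si2, at 322 ± 57.5 normalized counts in si2 (SD, n = 4) and 103 ± 24.0 in si1 (SD, n = 3), a log2 fold change of 1.65 (SE 0.23, limma adjusted p = 0.00978). HK1 was lower in si2, at 170 ± 22.3 in si2 and 294 ± 14.0 in si1, a log2 fold change of -0.79 (SE 0.18, limma adjusted p = 0.0376). PFKFB4 was lower in si2, at 6.85 ± 1.65 in si2 and 15.9 ± 4.55 in si1, a log2 fold change of -1.10 (SE 0.25, limma adjusted p = 0.0410). In none of the 3 did the groups overlap. PFKFB4 reached a normalized count of 10 in si1 libraries only, with at most 8.40 in si2. The filter thus fixed that its groups did not overlap, and its call is not independent of that. At an unadjusted p under 0.05 there were 11 of 36 members, against 25.4%. The NDRG1 call held without any single library, with an adjusted p of 0.0145 to 0.0424. The HK1 call was lost without any 1 of the 7 libraries (adjusted p 0.0530 to 0.103), and the PFKFB4 call without any 1 except si1 2 (0.0581 to 0.116).

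Other glycolysis members pointed both ways between the siRNAs. ENO2 had a log2 fold change of 0.99 (SE 0.34, limma adjusted p = 0.117, and 0.57 without si1 2) for si2 over si1, PFKFB3 0.90 (SE 0.30, limma adjusted p = 0.110) and ALDOA 0.60 (SE 0.20, limma adjusted p = 0.107), while PFKM had -0.83 (SE 0.24, limma adjusted p = 0.0794). In 8 of 20 tested glycolysis members the siRNA groups did not overlap, PFKP, ENO2, ALDOA and PFKFB3 being above and GAPDH, PFKFB4, PFKM and HK1 below in si2. Over all members this held for 11 of 36, against 25% of all tested genes, 7 above (against 13.4%) and 4 below (against 11.6%). PFKFB4 is in both counts, although the filter fixed its place. VEGFA had a log2 fold change of 0.96 (SE 0.25, limma adjusted p = 0.0647) and HK2 of 1.49 (SE 0.76, limma adjusted p = 0.263), the second with 0 reads in si1 2, without which it was 0.49, while the share of mitochondrial reads as a covariate took it to 3.79 (limma adjusted p = 0.0749). The share of mitochondrial reads, 4.59% to 5.12% in si2 and 6.57% to 11.1% in si1, also separated these groups. With that share as a covariate NDRG1 kept its call and HK1 and PFKFB4 did not. The fibroblast marker COL1A1 was called as well, at 34.7 to 58.4 normalized counts in si2 and 12.3 to 30.5 in si1, a log2 fold change of 1.38 (SE 0.32, limma adjusted p = 0.0429). That call was lost without any 1 library except si1 2 (adjusted p 0.0505 to 0.116), and the covariate brought the value to 0.58 (limma adjusted p = 0.457). COL3A1 and LUM, the other fibroblast markers listed, were at 0 in every si1 and si2 library. The summed markers of other cell types, mostly COL1A1, ran from 42.0 to 61.9 in si2 and from 15.8 to 30.5 in si1. Their part in these differences was not tested. In bulk RNA, fewer cells of a type and less RNA per cell cannot be told apart.

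Of further genes of glycolysis and of lactate and pyruvate use, 1 of 20 tested rose and 0 fell with si2, where 1.93% of all tested genes rose, and 0 of 22 passed in either direction with si1, where 1.72% of all tested genes were called. With si1, 9 of 22 had an unadjusted p under 0.05, against 23.9% of all tested genes, 8 higher and 1 lower. In 8 of 22, all si1 libraries lay above all controls, against 10.8%, and in 0 below, against 10.9%. The list was chosen with earlier results of these data known, so such shares, here and in what follows, do not test it. SLC16A7, among these 8 and the deposited calls that follow, had 18.0 to 74.9 normalized counts in si1 and 3.06 to 6.54 in siSCR. It passed the filter through si1 alone, which fixed its place above the controls. In the authors' deposited table, 7 of the 22 had an adjusted p under 0.05 and were higher with si1, against 4.48%, and 0 were lower, against 5.33%: DLD and PDHX of the pyruvate dehydrogenase complex, MPC2 of the mitochondrial pyruvate carrier, the transporters SLC16A7 and SLC2A2, HKDC1 and TIGAR, a fructose bisphosphatase. For si2 the authors' deposited table had 2 of the 20, DLD and PDHX, both higher, against 3.44%. The gene called here by limma with si2 was PDHX, which anchors a subunit in the pyruvate dehydrogenase complex. It had 83.0 to 138 normalized counts in si2 and 63.1 to 132 in si1, against 32.7 to 52.9 in siSCR, so that both knockdown groups lay above the controls. On a log2 scale the fit gave 1.42 with si2 (SE 0.21, limma adjusted p = 0.0102) and 1.19 with si1 (SE 0.29, limma adjusted p = 0.0740). The si2 call held without any 1 library, with an adjusted p of 0.00321 to 0.0467, and without siSCR 1 the si1 value was 1.31 (limma adjusted p = 0.0367). Between the siRNAs, 2 of 21 were called, both higher in si2 (against 3.71% of all tested genes): PDP2, a phosphatase that activates pyruvate dehydrogenase, at a log2 fold change of 1.46 (SE 0.25, limma adjusted p = 0.0180), and BPGM, which makes 2,3-bisphosphoglycerate, at 1.17 (SE 0.29, limma adjusted p = 0.0498). The PDP2 call was lost without si1 3, si2 1 or si2 4 (adjusted p 0.0507 to 0.0547), and the BPGM call without any 1 library except si1 1 (0.0721 to 0.123).

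Of further hypoxia targets, 2 of 32 tested rose and 0 fell with si2, where 1.93% of all tested genes rose, and 0 of 33 passed with si1, against 1.72%. With si1, 9 of 33 had an unadjusted p under 0.05, a share near the 23.9% of all tested genes. In the authors' deposited table, 2 of the 33 were higher with si1 (ERO1A and FAM162A), against 4.48%, and 2 of the 32 with si2 (ERO1A and MAFF), against 3.44%. STC1, on this list but below the filter used here, was also higher with si2 in the authors' deposited table, at a log2 fold change of 0.94. ERO1A, an endoplasmic reticulum oxidase, had 150 to 194 normalized counts in si2 and 148 to 158 in si1, against 47.9 to 116 in siSCR, of which siSCR 1 was the highest. The log2 difference from siSCR came to 1.32 with si2 (SE 0.26, limma adjusted p = 0.0275), and to 1.19 with si1 (SE 0.31, limma adjusted p = 0.0806). MAFF, a small bZIP transcription factor, had 32.7 to 51.5 in si2 and 0 to 24.0 in si1, against 9.16 to 31.1 in siSCR, a log2 fold change of 1.40 (SE 0.32, limma adjusted p = 0.0443) for si2. Both si2 calls held without siSCR 1 (adjusted p 0.00108 for ERO1A and 0.00369 for MAFF) and were lost without any other single library (0.0726 to 0.0931 and 0.0744 to 0.128). Without siSCR 1, ERO1A with si1 came to 1.46 (limma adjusted p = 0.00985). The value of 0 was si1 2, the library with the fewest detected genes, 11618. Among 12 tested further genes of HIF regulation, limma called 0 in each of the 3 comparisons, while an unadjusted p under 0.05 was reached by 2 with si1 (against 23.9% of all tested genes), by 1 with si2 (against 19.6%) and by 1 between the siRNAs (against 25.4%).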

How the data were processed

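The submitters' processing notes name cutadapt, FastQC, STAR, HTSeq and the GRCh38 build, and the authors deposited log2 values per library. Tested on the values, these are the log2 of the count normalized by relative log expression (DESeq2, per the labels' protocols) plus 1; undone, 100% of values lay within 0.01 of whole reads, whose sum gave the depth. Strandedness and settings are not stated (not given in the sources used here). Fold changes, p-values and mean normalized signal were deposited by the authors too, and the first 2 kinds were used only where their table is named.

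Each pair of groups was fitted alone with limma 3.58.1 in R 4.3.3 on log2(normalized count + 1), for genes whose normalized count reached 10 in a number of libraries equal to the smaller group, two-sided, with Benjamini-Hochberg adjustment over all tested genes. Fold changes on this scale understate those of low genes. The fit was tested on simulated data. Positions and exon lengths came from the GENCODE annotation of GRCh38. The 40 members and the further lists were chosen with earlier results of these data known. Full statistics were given for members called in any comparison and, per member group and siRNA, for the largest positive and negative fold change; BNIP3L, ALDOA, PFKM, VEGFA and HK2, and values for further members or comparisons, were added after their values were seen. Library totals hold reads on genes only, and the limit for CA9 covers counting error only. The alternatives were another filter, scaling, pseudocount, variance model, set of libraries, replicate block, mitochondrial share as a covariate and leaving out each library.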

Additional observations from a re-analysis of the deposited data

Results flagged for a closer look

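Over 74 combinations of a gene (the tested members and AKR1A1) and a group of 4 libraries, 6 held a library whose gap to the nearest other took more of the group's log2 range than Dixon's 95% critical value; chance flags about 1 in 20 groups. In siSCR, siSCR 1 accounted for 4 of the 6. HK1 was highest there at 253 normalized counts, where the remaining controls had 141 to 150, and NDRG1 at 578, against 190 to 228. PGAM1 was lowest there at 10.1, against 21.4 to 24.9, and ENO1 at 2363, against 4536 to 4802. ADM was highest in siSCR 3 at 31.4, where the remaining controls had 21.4 to 22.7. ARNT was lowest in si2 1 at 52.2, where the remaining si2 libraries had 91.2 to 91.5.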

How the results depend on the processing

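Depth limits VHL, HIF1A, EPAS1, EGLN3, HK2, PFKFB4, ALDOC, PGAM1, PDK1, CA9 and ANKRD37 most, each with fewer than 40 reads in every library. Genes called with si1 against siSCR numbered 181, and 5 with no filter, 567 at a minimum of 50, 414 at a pseudocount of 5, 712 with limma-trend, 1141 with all 11 libraries in one fit, 582 with voom on recovered reads (chosen after seeing the data), and 0 to 1399 without 1 library. With si2 against siSCR they numbered 320, and 108 with no filter, 482 with limma-trend, 1343 with mitochondrial share as a covariate and 88 to 1496 without 1 library. With si2 against si1 they numbered 704, and 230 with no filter, 1064 with limma-trend, 167 with the covariate, 1172 with voom and 120 to 803 without 1 library. Both highest counts against siSCR came without siSCR 1.

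Members called with si1 against siSCR were 0, and 2 with limma-trend, 3 with all 11 libraries, 2 with the covariate, 1 with voom and 0 to 5 without 1 library. With si2 against siSCR they were 0, and 4 with the covariate, 0 to 5 without 1 library, and 2 (CA12 and BNIP3L) at a minimum of 50, at a pseudocount of 5, with limma-trend, with all 11 libraries and with voom. With si2 against si1 they were 3, and 5 with limma-trend, 6 with voom, 1 with no filter, with all 11 libraries and with the covariate, and 1 to 3 without 1 library. Over 647 values of named genes under alternatives, 521 kept direction and side of the threshold, 71 lost the call, 49 gained it and 6 turned. With si2 against siSCR, HIF1A ran from -0.63 to 0.012 without 1 library and was above 0 without si2 1, and HK1 ran from -0.052 to 0.23 and was below 0 without siSCR 2, siSCR 3, siSCR 4, si2 3 or si2 4. AKR1A1 ran from -2.98 to -2.10 with si1 without 1 library, and its limma adjusted p passed only without siSCR 1 (0.0210; highest 0.126); with si2 it ran from -2.66 to -2.34 and always passed. The causes were not tested.

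Deviations from group means of same-numbered libraries correlated at 0.0930 to 0.402 for si1 and siSCR. They correlated at -0.03 to 0.176 for si2 and siSCR and at -0.01 to 0.110 for si2 and si1. The 0.402 was si1 1 with siSCR 1, while si1 1 gave -0.294 to -0.132 with the other controls. The numbers were not taken as pairs, and whether the replicate 1 libraries share an effect was not tested. The si1 fits without siSCR 1 keep si1 1. With the replicate block, 0 genes were called with si1 against siSCR, 175 with si2 against siSCR and 6 with si2 against si1, and 0 members in each; NDRG1 in si2 against si1 then had an adjusted p of 0.109. edgeR was planned for recovered reads and not run, as the deposited unit is log2.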
